A study of Mus musculus with 3 samples.

Results

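Fatty acid oxidation and peroxisome genes are the 37 genes described here, of 20660 genes that the array probes name through RefSeq accessions. They were chosen by symbol: 17 encode mitochondrial proteins of fatty acid oxidation, 8 encode peroxisomal oxidation enzymes, their transporter and enzymes that release the products, and 10 are Pex genes, which encode the peroxins that build the organelle. A further 2, Ech1 and Eci2, encode auxiliary enzymes found in both compartments and are given apart. The 37 genes were all measured, meaning that at least 3 of the 6 channel readings of a probe were well above background. The study compared bone marrow-derived macrophages of C57BL/6J mice that were given adiponectin, a hormone secreted by fat cells, at 12 µg/ml for 18 h with macrophages left untreated. The labels name no engineered allele. All cells were matured in medium conditioned by L929 fibroblasts as a source of growth factor, and were kept in low serum for a day before the treatment. Each of 3 two-colour Agilent arrays held 1 treated and 1 untreated RNA sample, with the treated RNA labelled with Cy5 on replicate 2 and with Cy3 on the others. The labels call the arrays biological replicates but do not say whether they came from separate mice or cultures, so p-values measure only the spread between these samples.

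Fatty acids enter the mitochondrial matrix as carnitine esters and are shortened there in repeated cycles of dehydrogenation, hydration, a further dehydrogenation and thiolytic cleavage. Electrons from the opening step pass through the electron transfer flavoprotein to the respiratory chain. Peroxisomes run a related cycle with their own oxidases, bifunctional enzymes and thiolases on very long and branched chains, and hand the shortened products to mitochondria. Peroxisomes hold no DNA, so peroxins insert their membrane proteins and import every matrix enzyme from the cytosol. In macrophages, fatty acid oxidation is best known as a feature of the state induced by interleukin-4, while inflammatory activation is known for a reliance on glycolysis.

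Ratios are given as log2 of treated over untreated, so that a value of -1 is a halved level, with limma's moderated standard error (SE) over 3 arrays. A gene rose or fell where limma's p-value, adjusted by the Benjamini-Hochberg method over 13180 measured genes, was under 0.05. Over all measured genes 6074 fell (46.1%) and 3230 rose (24.5%), and the median ratio was -0.17. When each array was centred on the measured genes, 4835 fell (36.7%) and 4639 rose (35.2%). Treated channels had 43.9% to 47.5% of probes well above background and untreated channels 53.4% to 54.3%, and the part of this difference in the ratios below was not tested. All 7 measured macrophage markers of 8 listed were above background in every sample. Their summed intensity was 154636 to 191442 in treated and 309456 to 336121 in untreated samples, and 6 fell, led by Fcgr1 (-2.05) and Mertk (-2.05), while Cd14 rose (0.97). The 4 measured fibroblast markers of 5 listed summed to 534 to 602 in treated and 407 to 438 in untreated samples, and 3 neutrophil markers of 4 listed to 1972 to 2159 and 1678 to 1945. Of the 4 fibroblast markers 3 rose, led by Dcn (0.79), and Col3a1 did not pass (0.05). Of the 3 neutrophil markers, Elane rose (0.73), while Mpo (-1.32) and Cebpe (-1.38) fell. None of 4 adipocyte markers, Adipoq included, was measured. Of 4 T cell markers 2 were measured, of which Cd3e rose (0.96) and Cd4 did not pass (-0.12). Of 4 B cell and 4 hepatocyte markers 1 each was measured and did not pass. What part these shifts had in the results was not tested, and in bulk RNA fewer cells of a type cannot be told apart from less RNA per cell.

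Most genes of the oxidation enzymes fell, and the Pex genes moved both ways. Of the 37 members, 25 fell against 46.1% of all measured genes, 6 rose against 24.5%, and 6 did not pass in limma; 70.6% of all measured genes passed in either direction. By class, 14 of 17 mitochondrial genes fell and none rose, 6 of 8 peroxisomal genes fell and 1 rose, and 4 of 10 Pex genes fell and 4 rose. The median ratio was -0.80 for the mitochondrial genes, -0.97 for the peroxisomal genes and -0.08 for the Pex genes, beside -0.17 for all measured genes. The Pex median turned to 0.09 with each array centred on the measured genes, to 0.08 with a normexp offset of 0 and to 0.07 in the log ratio written by the scanner. At 2-fold or more, 10 members fell (12.6% of all measured genes did) and none rose (6.8%). In the levels of single samples, the 3 treated values lay below the 3 untreated values for 26 members, as they did for 48.7% of all measured genes, and above them for 6 members (26.8%), and they overlapped for 5, while the groups did not overlap for 75.6% of all measured genes.

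Array by array, the median of the mitochondrial genes was -0.77, -0.63 and -1.11 on replicates 1, 2 and 3. The peroxisomal genes had medians of -0.88, -0.92 and -1.05 and the Pex genes of -0.05, -0.0023 and -0.18, while all measured genes had medians of -0.16, -0.14 and -0.20. Both enzyme classes were thus below the median of all genes on each array, and the Pex genes above it on each. The peroxisomal median lay below the mitochondrial median on replicates 1 and 2 and above it on replicate 3. No test of the difference between classes was made, since the members were chosen by name and are not replicates.

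**Figure D1:**
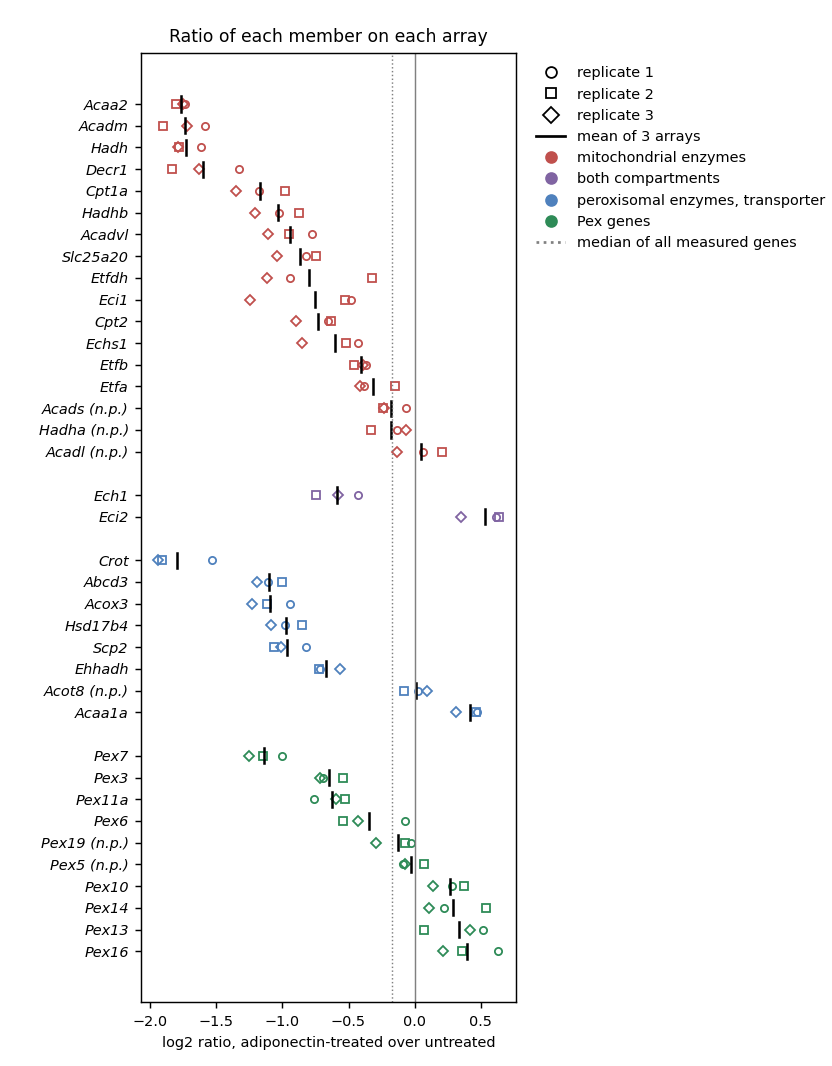
Log2 ratio of treated over untreated for each of the 37 genes on each array (open symbols), with the mean of the 3 arrays as a black bar; n.p. marks genes that did not pass in limma, and the dotted line is the median of all measured genes (-0.17). Mitochondrial and peroxisomal genes lie mostly left of 0, down to -1.76 for Acaa2 and -1.79 for Crot, whereas the Pex genes run from -1.13 for Pex7 to 0.40 for Pex16; Pex5 and Pex19, close to 0, change sign when arrays are centred on the measured genes, and the genes right of 0 lie below 0 under median centring.

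The 3 genes of the carnitine shuttle, the entry to the mitochondrion, all fell. Cpt1a encodes the carnitine palmitoyltransferase of the outer membrane, whose activity limits the rate of entry. Its log2 intensity was 11.71, 11.68 and 11.83 in untreated and 10.54, 10.70 and 10.48 in treated samples of replicates 1, 2 and 3. No treated value reached an untreated one, and the mean ratio was -1.17 ± 0.096 (moderated SE, n = 3 arrays; limma adjusted p = 1.00e-05). A dimmer probe of Cpt1a gave -0.76. Slc25a20, the translocase that carries acylcarnitines across the inner membrane, had a ratio of -0.87 ± 0.090. Cpt2, which restores acyl-CoA on the matrix side, had one of -0.73 ± 0.090, and -0.40 on a dimmer probe.

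Acyl-CoA dehydrogenases catalyse the opening step of the cycle, each for a range of chain lengths, and 2 of the 4 fell. Acadm, the medium-chain enzyme, had log2 intensities of 11.89, 11.97 and 11.89 in untreated and 10.31, 10.07 and 10.17 in treated samples. The groups lay apart by far more than the spread within either. The ratio was -1.73 ± 0.091 (limma adjusted p = 8.95e-07), a level 3.32-fold lower. Acadvl, the very long-chain enzyme, had ratios of -0.77, -0.95 and -1.11 and a mean of -0.94 ± 0.092. Acadl, the long-chain enzyme, had ratios of 0.06, 0.20 and -0.13 and did not pass (limma adjusted p = 0.686), and Acads, the short-chain enzyme, was at -0.18 (limma adjusted p = 0.0848). For both of these genes the treated and untreated levels overlapped.

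The genes that pass the electrons on fell as well, by less than Acadm. Etfa and Etfb encode the subunits of the electron transfer flavoprotein, and they had ratios of -0.32 ± 0.089 and -0.40 ± 0.080. A dimmer probe of Etfa gave -0.16, with 0.11 on replicate 2. The call of Etfa was lost without replicate 1 (limma adjusted p = 0.0844) or replicate 3 (0.0785), with each array centred on the measured genes (0.160) and with a normexp offset of 0 (0.0977). Etfdh encodes the oxidoreductase that hands the electrons to ubiquinone. Its ratios were -0.95, -0.33 and -1.11, with replicate 2 nearest to 0, and their mean was -0.80 ± 0.14.

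Of the 5 genes for the later steps of the cycle, 4 fell, among them Acaa2 and Hadh, whose changes were close in size to that of Acadm. Acaa2, the thiolase that releases acetyl-CoA, had log2 intensities of 12.82, 12.86 and 12.82 in untreated and 11.09, 11.06 and 11.07 in treated samples. Its ratio of -1.76 ± 0.080 (limma adjusted p = 4.36e-07) had a standard deviation of 0.035 over the arrays. Hadh, the hydroxyacyl-CoA dehydrogenase for shorter chains, went from 9.84, 9.88 and 9.95 to 8.23, 8.11 and 8.16. Its 3 arrays gave -1.61, -1.78 and -1.79, a mean of -1.73 ± 0.084. Echs1, the short-chain enoyl-CoA hydratase, had a ratio of -0.60 ± 0.10.

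Hadha and Hadhb encode the subunits of the mitochondrial trifunctional protein, which joins the last 3 steps of the cycle for long chains. The genes lie head to head on chromosome 5, with 272 bases between their start sites in RefSeq's GRCm38.p6, so that the stretch before Hadhb is also the stretch before Hadha read on the other strand. The 250 bases before the start site of Hadhb, at chr5:30155003-30155252 on the plus strand, are shown because they lie between a gene that fell and a gene that did not pass.
Hadhb: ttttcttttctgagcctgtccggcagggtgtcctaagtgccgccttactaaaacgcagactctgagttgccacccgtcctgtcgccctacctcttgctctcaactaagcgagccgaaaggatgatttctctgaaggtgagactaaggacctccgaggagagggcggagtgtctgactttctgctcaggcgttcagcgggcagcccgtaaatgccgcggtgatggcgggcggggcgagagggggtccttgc

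Hadhb had log2 intensities of 11.29, 11.34 and 11.44 in untreated and 10.27, 10.47 and 10.23 in treated samples, and its ratio was -1.03 ± 0.093 (limma adjusted p = 1.68e-05). Hadha had 8.93, 9.01 and 9.01 in untreated and 8.80, 8.68 and 8.95 in treated samples, where the highest treated value exceeded the lowest untreated one. The ratio of Hadha was -0.18 ± 0.088 and did not pass (limma adjusted p = 0.103), though it did with a dye term (0.0330), and the log ratio written by the scanner put it at 0.0034. The Hadhb ratio minus the Hadha ratio, on the log2 scale, was -0.89, -0.54 and -1.14 on the 3 arrays. This pair was singled out after its values were seen, and the difference was not tested. Each gene was measured by 1 probe.

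Auxiliary enzymes remove the double bonds of unsaturated fatty acids, which the main cycle cannot pass. Decr1, the mitochondrial dienoyl-CoA reductase, had ratios of -1.33, -1.83 and -1.63 with a mean of -1.60 ± 0.11, and a dimmer probe gave -0.70. Only 3 of the 6 channel readings of that dimmer probe were well above background, the fewest at which a probe counted as measured. If these were the untreated samples, its direction was in part fixed by that filter. Eci1, the mitochondrial enoyl-CoA isomerase, had ratios of -0.48, -0.53 and -1.24, so that replicate 3 lay apart from the others, with a mean of -0.75 ± 0.15. Ech1 and Eci2, whose products are in both compartments, went in opposite directions. Ech1, a dienoyl-CoA isomerase, went from 11.69, 11.83 and 11.80 in untreated to 11.27, 11.08 and 11.22 in treated samples, a ratio of -0.58 ± 0.091. Eci2, an enoyl-CoA isomerase, went from 11.60, 11.43 and 11.53 to 12.22, 12.07 and 11.88, a ratio of 0.53 ± 0.091 (limma adjusted p = 0.000828), with no overlap between the groups. Eci2 has a closely related mouse copy, Eci3, so its probe may not separate them.

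**Figure D2:**
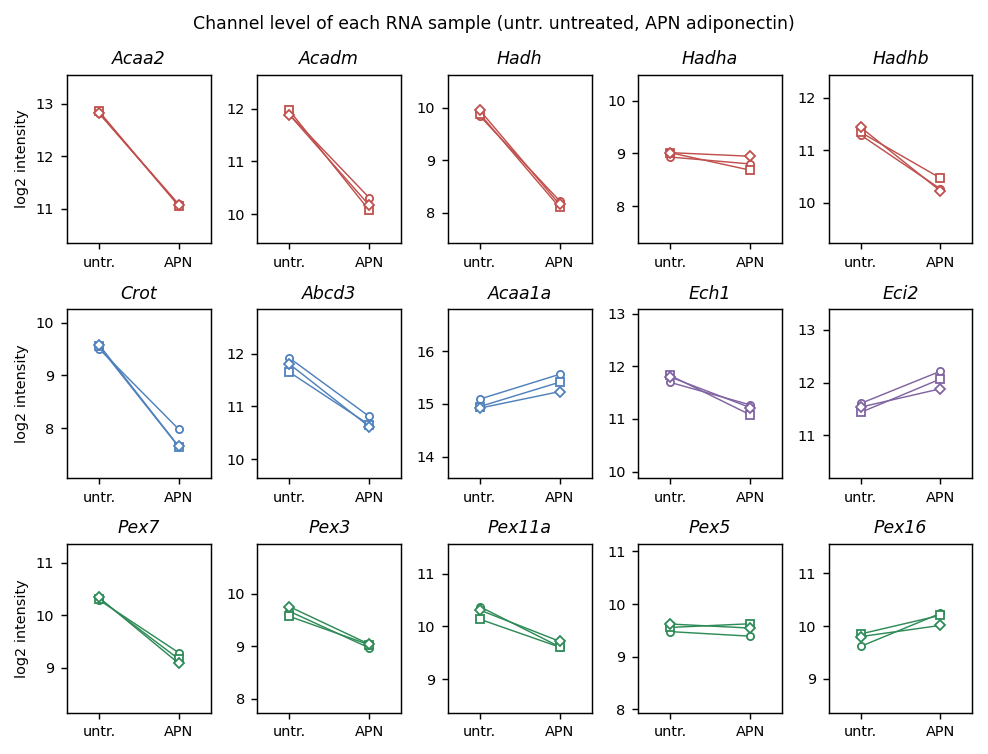
Log2 intensity of 15 members in the untreated (untr.) and treated (APN) RNA sample of each array, with a line for each array (circle, square and diamond for replicates 1, 2 and 3) and the same span on every vertical axis; levels of different genes are not comparable. Acaa2, Acadm, Hadh and Crot drop steeply on all arrays, Hadhb drops while Hadha stays close to level, and Acaa1a, Eci2 and Pex16 are higher in the treated sample of every array after loess normalization, but not under median centring, which puts their mean ratios below 0.

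Among the peroxisomal genes, those for entry and the bifunctional step fell, and the oxidase gene gave opposite directions on its 2 probes. Abcd3 encodes the half-transporter of the peroxisomal membrane that imports acyl-CoA. It had log2 intensities of 11.92, 11.65 and 11.81 in untreated and 10.81, 10.65 and 10.62 in treated samples, with no overlap and a ratio of -1.10 ± 0.084 (limma adjusted p = 6.61e-06). Acox3, the oxidase of branched chains, had ratios of -0.94, -1.11 and -1.23 on its brightest probe and a mean of -1.09 ± 0.089. The other probe of Acox3 gave 0.70, 0.97 and 0.90, and with the mean over both probes the ratio was -0.12 (limma adjusted p = 0.177), so the direction of Acox3 rests on the choice of probe. With the mean over probes, 5 of the 8 peroxisomal genes fell in place of 6. Hsd17b4, the bifunctional enzyme of branched and very long chains, had ratios of -0.98, -0.85 and -1.09 and a mean of -0.97 ± 0.086. Ehhadh, the other bifunctional enzyme, was not well above background in treated cells on any array. It passed the filter on dim probes only through the untreated samples, so its place among the falls was in part fixed by that filter. In loess-normalized levels its ratio was -0.67 ± 0.083, a level 1.59-fold lower in treated cells. Raising each treated reading to at least the dimmest treated signal well above background on its array left the 1.59-fold unchanged. It is therefore an estimate from dim readings and not a separate bound. The ratio ran from -0.50 with each array centred on the measured genes to -2.97 in the log ratio of the scanner, so the size of the fall depends on the processing.

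The thiolases of the peroxisome and the enzymes that release its products did not move as a group. Scp2, whose longer product is a thiolase of branched chains, had a ratio of -0.96 ± 0.087, and -1.25 on a dimmer probe. Acaa1a, the straight-chain thiolase, went from 15.09, 14.95 and 14.92 in untreated to 15.56, 15.41 and 15.24 in treated samples. All treated values were above the untreated ones, and the ratio was 0.42 ± 0.083 (limma adjusted p = 0.00198). Acaa1a has a near-identical copy, Acaa1b, which was at 0.58 ± 0.085, so the level of either gene is uncertain. Crot, the octanoyltransferase that makes carnitine esters for export to mitochondria, went from 9.51, 9.55 and 9.59 to 7.98, 7.64 and 7.65. Its ratio of -1.79 ± 0.10 (limma adjusted p = 1.36e-06), was a level 3.46-fold lower. Acot8, a thioesterase that releases free fatty acids, had ratios of 0.03, -0.08 and 0.09 and did not pass (limma adjusted p = 0.912), and its other probe gave -0.035.

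Genes of the same step of peroxisome assembly often moved in different ways. Pex7 encodes the receptor for the N-terminal import signal, which the peroxisomal thiolase carries. Its log2 intensity was 10.29, 10.32 and 10.34 in untreated and 9.29, 9.17 and 9.09 in treated samples, and its ratio of -1.13 ± 0.087 (limma adjusted p = 6.77e-06) was the lowest of the Pex members. Pex5 encodes the receptor for the more common C-terminal signal. It had 9.48, 9.56 and 9.62 in untreated and 9.39, 9.62 and 9.54 in treated samples, which overlapped, and its ratio of -0.03 ± 0.083 did not pass (limma adjusted p = 0.754). Of the genes for membrane assembly, Pex3, the membrane anchor, had ratios of -0.69, -0.54 and -0.71 (mean -0.65 ± 0.084), and Pex16, which helps to place it, ratios of 0.63, 0.35 and 0.21 (mean 0.40 ± 0.099). Pex19, the chaperone of membrane proteins, was at -0.13 and did not pass (limma adjusted p = 0.221). Pex11a, which acts in peroxisome division, had ratios of -0.76, -0.53 and -0.59 and a mean of -0.63 ± 0.086.

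Smaller changes were seen for the docking and recycling genes. Pex13 and Pex14, the docking proteins of the import receptors, were at 0.33 ± 0.10 and 0.29 ± 0.10, with replicate 2 lowest for Pex13 (0.07) and highest for Pex14 (0.54). A dimmer probe of Pex13 gave 0.014, and the mean over its probes, 0.17, did not pass (limma adjusted p = 0.111). Pex10, a subunit of the ubiquitin ligase that marks receptors for recycling, was at 0.26 ± 0.086, and Pex6, a subunit of the ATPase that extracts them, at -0.35 ± 0.11, with -0.07 on replicate 1. The 4 rises among the Pex genes were each lost under some processing or without some array. Without replicate 1, none of the 4 passed (limma adjusted p between 0.0708 and 0.145), and the members that rose numbered 2 in place of 6. Without replicate 2, Pex14 (0.132) and Pex10 (0.0699) did not pass, and without replicate 3, Pex13 (0.0901) did not. Pex6 was lost without replicate 2 (0.0735), without replicate 3 (0.0848), and also after each array was centred on the measured genes (0.154), when the normexp offset was 0 (0.199) and when the scanner's own log ratio was used (0.194). Median centring instead of loess put the 6 rising members below 0, but above the median of all genes by 0.17 for Pex13 up to 0.57 for Pex10.

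Promoter sequences of 33 of the 37 members were found in the RefSeq table of GRCm38.p6, 37 promoters in all. The 250 bases before each start site were searched on both strands for 4 sets of letters. The letters AGGNCA repeated after any 1 base, the direct repeat bound by PPAR with RXR, was in none of them, against 0.338% of 32851 promoters. TNAAGGTCA, bound by oestrogen-related receptors and able to overlap the repeat, was in none, against 1.14%. TCACGTGA, an E-box bound by TFEB, was in none, against 0.785%. At shares this low, no match among 37 promoters is the likely outcome for each of these sets of letters. Their absence therefore says little about the members. GCGCA followed by any base and GCGC, bound by nuclear respiratory factor, was in the promoters of 3 members (8.11%, against 3.74%), namely Etfdh, Etfb and Abcd3, all of which fell. The 3 stretches are shown, each with the match in capitals. That of Etfdh is at chr3:79628838-79628937 on the minus strand, that of Abcd3 at chr3:121815323-121815422 on the minus strand and that of Etfb at chr7:43443972-43444071 on the plus strand. The capitals of Abcd3 are the reverse complement of the letters searched, since the match was on the strand opposite to the one printed. Of the 37 members 25 fell, and the difference between 8.11% and 3.74% rests on 3 matches and was not tested. A match of letters is a description, and no match speaks only of this window.
Etfdh: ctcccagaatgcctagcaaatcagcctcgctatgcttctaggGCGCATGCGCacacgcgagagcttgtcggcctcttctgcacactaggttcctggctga
Abcd3: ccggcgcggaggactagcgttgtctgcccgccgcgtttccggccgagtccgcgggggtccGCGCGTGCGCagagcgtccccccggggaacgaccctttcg
Etfb: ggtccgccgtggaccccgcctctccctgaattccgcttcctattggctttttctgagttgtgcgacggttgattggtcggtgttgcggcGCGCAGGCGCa

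Genes of the same pathways outside the 37 members were taken from fixed lists. Phyh, Mlycd, Acaca and Acacb were named after their values were seen. Of 30 measured further peroxisomal enzymes and transporters, of 39 listed, 22 fell and 5 rose, with a median of -0.79. Over all measured genes the shares were 46.1% and 24.5%. The largest falls were those of Nudt19 (-1.86 ± 0.091), which cleaves coenzyme A, and Agps (-1.85 ± 0.080), a plasmalogen synthesis enzyme that is imported through Pex7. Phyh, the phytanoyl-CoA hydroxylase and another cargo of Pex7, was at -0.68 ± 0.081. The genes of the peroxisomal thiolase, which carries the same import signal, went the other way (Acaa1a 0.42, Acaa1b 0.58). In loess-normalized ratios the genes of Pex7 cargo thus did not move in a single direction. As near-identical copies, Acaa1a and Acaa1b may not be separate readings. Under median centring Acaa1a (-0.61), Acaa1b (-0.60), Agps (-3.03) and Phyh (-1.86) were all below 0. There the thiolase genes lay above the median of all genes, and Agps and Phyh below it. The largest rises were those of Prdx5, a peroxiredoxin found in several compartments (1.96 ± 0.081), and Acaa1b, which lay at -0.60 under median centring, above the median of all genes. The list's median stayed below that of all genes under each processing tried, by -0.49 to -0.87 on the log2 scale.

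Of 9 measured further peroxins and division genes, of 11 listed, 6 fell and 3 rose, with a median of -0.34. The shares over all measured genes were 46.1% and 24.5%. Pex26, which anchors the receptor-extracting ATPase, was at -1.41 ± 0.097, and Pex11g, a division factor, at -1.32 ± 0.082. Dnm1l, the dynamin that divides peroxisomes and mitochondria, rose by 0.36 ± 0.094. Under median centring it lay below 0 (-0.81) and above the median of all genes. Pex2, named after its value was seen because it is in the ubiquitin ligase with Pex10, was at -1.11 ± 0.11.

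Of 27 measured further mitochondrial genes, of 28 listed, 14 fell and 5 rose, with a median of -0.38, beside 46.1% and 24.5% of all measured genes, so these counts lie near the background. Hibch (-1.46 ± 0.11), an enzyme of valine breakdown, and Acat1 (-1.29 ± 0.081), the acetoacetyl-CoA thiolase, fell most. Nadk2, the mitochondrial NAD kinase, rose by 0.99 ± 0.083 and Hsd17b10, a hydroxyacyl-CoA dehydrogenase of isoleucine breakdown, by 0.96 ± 0.084. These were at -0.02 and -0.12 under median centring, where the median of all genes was -1.03. Mlycd, which removes malonyl-CoA, the inhibitor of Cpt1a, was at -0.91 ± 0.079. The genes of the enzymes that make malonyl-CoA, Acaca (-0.46 ± 0.13) and Acacb (-0.36 ± 0.087), fell as well. Acaca was at -0.10 on its other measured probe, and Acacb was not well above background in treated cells on any array. Acacb passed the filter on dim probes only through the untreated samples, so its fall was in part fixed by that filter. Over the alternatives other than median centring, the limma adjusted p ranged up to 0.0959 for Acaca and 0.0833 for Acacb. Under median centring Acacb was at -0.40, above the median of all genes by 0.63, and Acaca was at -1.61, below that median. Whether the malonyl-CoA level changed was not tested.

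Genes for fatty acid uptake and activation moved both ways, 6 of 14 measured (16 listed) rising and 7 falling. All measured genes also moved both ways, with 24.5% rising and 46.1% falling. Their median was -0.14, and 0.03 after each array was centred on the measured genes. Fabp3, a fatty acid-binding protein, rose by 2.51 ± 0.091 and Acsl1, an acyl-CoA synthetase, by 1.81 ± 0.11. Acbd5, an acyl-CoA-binding protein of the peroxisomal membrane, was at -1.38 ± 0.093, and Acsl4, another acyl-CoA synthetase, at -1.28 ± 0.090, and both fell.

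Among 25 measured regulators, of 29 listed, 10 fell and 9 rose, beside 46.1% and 24.5% of all measured genes. Their median was -0.12, and 0.05 after each array was centred on the measured genes. Ppard, a nuclear receptor whose targets include oxidation genes, rose by 2.01 ± 0.081, and Rxra, the partner of PPAR receptors, by 1.93 ± 0.087 on its brightest probe and by 0.22 on the other. Pparg was at -2.17 ± 0.10 and Prkaa1, the catalytic AMPK subunit, at -1.93 ± 0.089. Esrra, an oestrogen-related receptor, rose by 0.82 ± 0.098, and was at -0.32 under median centring, above the median of all genes by 0.71. Ppara was at 0.25 ± 0.084 (limma adjusted p = 0.0269), and its adjusted p ranged up to 0.0910 over the alternatives other than median centring, which put it at -0.64, above the median of all genes by 0.39. Ppargc1b was at -0.12 and did not pass (limma adjusted p = 0.223), and neither of the 2 probes of Ppargc1a was measured.

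**Figure D3:**
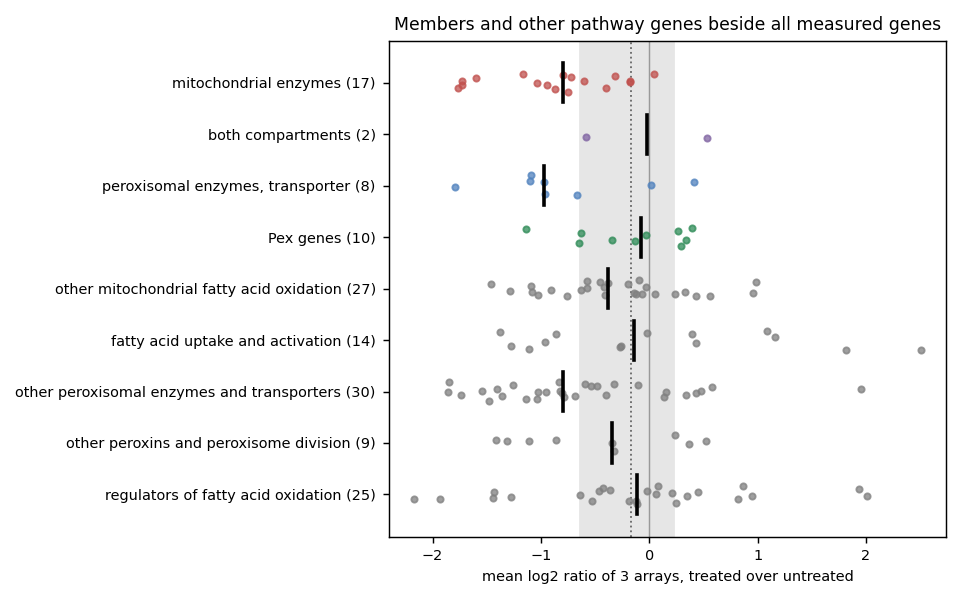
Mean log2 ratio of 3 arrays for each member, by class, and for each measured gene of the other pathway lists (grey), with the number of genes in brackets; black bars are medians, the grey band spans the middle 50% of all measured genes and the dotted line is their median (-0.17). The medians of the mitochondrial (-0.80) and peroxisomal (-0.97) members and of the further peroxisomal genes (-0.79) lie left of the band, and that of the Pex genes (-0.08) lies inside it and turns above 0 with arrays centred on the measured genes, a normexp offset of 0 or the log ratio written by the scanner.

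**Figure D4:**
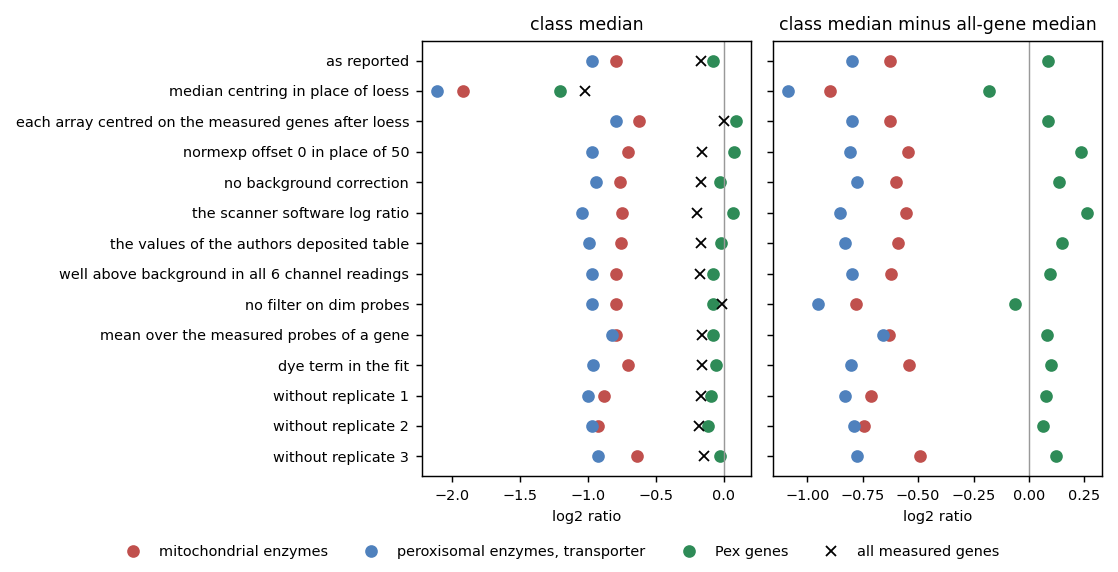
Medians of the mitochondrial, peroxisomal and Pex members under each processing (rows), as log2 ratios on the left and less the median of all measured genes on the right. Both enzyme classes lie below the median of all genes in every row, between -0.90 and -0.49 for the mitochondrial and between -1.09 and -0.66 for the peroxisomal genes, while the Pex genes lie between -0.18 and 0.26 and fall below that median with median centring and with no filter on dim probes.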

How the data were processed

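Feature Extraction 10.7.3.1 quantified the scans, per the file headers. Its deposited intensity values used here are the medians of spot and local background pixels, and its deposited log10 ratio is that of the processed signals. The deposited table of the authors' log2 values was already treated over untreated (r = 0.994, 0.990 and 0.992 with loess ratios); its background handling stays unknown. The 3 arrays shared 1 slide. The signals were corrected with normexp (offset 50) and loess-normalized in limma 3.58.1 (R 4.3.3) with control spots at weight 0. Spots with outlier flags (299 to 323 an array) were left out, and no spot was saturated. Of 55681 probes, 27235 matched 1 symbol through RefSeq's GRCm38.p6 table. Each gene was represented by its brightest measured probe, which left 13180 genes (7480 not measured), tested with lmFit and eBayes (2 residual and 6.22 prior degrees of freedom). Channel levels were further scaled between arrays with Aquantile. The number of arrays limits the precision. The fit was tested on simulated data. Members and lists were chosen with earlier results of these data known. Per-array values are given for the 3 largest called changes of a class, calls against the class and probes of opposite sign. They are also given for some further members outside this rule, such as Cpt1a, Etfdh, Eci1 and Pex5. Other lists name their 2 largest called rises and falls and 6 classical regulators. Some genes of these lists are counted but not reported here by name.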

Additional observations from a re-analysis of the deposited data

How the results depend on the processing

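Of the 31 members called, 22 of 25 falls and 2 of 6 rises (Eci2 and Acaa1a) kept their call under all alternatives other than median centring in which they were measured (12 at most). Under median centring, limma called 0 genes higher and 0 lower, and 0 and 0 members (5314 genes and 25 members had an unadjusted p under 0.05), the class medians were -1.92 (mitochondrial), -2.11 (peroxisomal) and -1.20 (Pex), and Acadl (-1.13), Eci2 (-0.63), Acaa1a (-0.61), Acot8 (-1.17), Pex16 (-0.76), Pex13 (-0.85), Pex14 (-0.77) and Pex10 (-0.45) turned below 0; the cause was not tested. Each array centred on the measured genes gave a peroxisomal median of -0.80, a Pex median of 0.090, Pex19 at 0.041 and Pex5 at 0.14. The Pex median was 0.076 with a normexp offset of 0 (Pex19 0.021, Pex5 0.13) and 0.068 in the log ratio written by the scanner (Hadha 0.0034, Pex5 0.15). Pex5 was at 0.022 without background correction and at 0.035 in the authors' table. The mean over probes gave a peroxisomal median of -0.82 and Acot8 at -0.012, a dye term Acot8 at -0.012, and counting Ech1 and Eci2 in the class a peroxisomal median of -0.82. Leaving out each replicate in turn gave 2 to 5 members higher, 23 to 24 lower, and Acadl at -0.035 without replicate 2 and Acot8 between -0.028 (without replicate 3) and 0.058 (without replicate 2). The dye coefficient passed limma's threshold for 44 genes and for none of the members (lowest adjusted p = 0.173). The slide was not fitted as a block, since all arrays share it. The fit is itself paired, since each ratio sets the treated against the untreated sample of the same array. Low signal limits Ehhadh, for which the size of the fall is uncertain.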
